A study of Homo sapiens with 6 samples.

Results

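The 10 genes described here encode the enzymes of de novo purine synthesis and its guanine branch: PRPS1, PPAT, GART, PFAS, PAICS, ADSL, ATIC, IMPDH1, IMPDH2 and GMPS. They were chosen by gene symbol and not by a rule on their values, though with earlier results of these data known. All 10 were found among the 12180 protein-coding genes of the deposited gene table. Their 38 listed transcripts were read from the 33090 transcripts of the matching transcript table. RNA came from TE-1, a cell line derived from a human esophageal squamous cell carcinoma, in 3 control libraries and 3 libraries of cells that overexpress FGL1 (FGL1-OE), with no further treatment or time point given. FGL1 is a secreted fibrinogen-like protein. The control cells, labelled WT, are called NC here, because the study's methods describe stable puromycin-selected lines that received either FGL1 or, as negative control, a random nonsense insert. IMPDH1 is a gene that the study took up from these same libraries, so its level here is no independent evidence of a change.

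Purines are built stepwise on a ribose phosphate that PRPP synthetase activates. PPAT commits this PRPP to the pathway, and GART, PFAS, PAICS, ADSL and ATIC complete the ring to inosine monophosphate (IMP), several of them being enzymes with more than 1 activity. IMP then leads either to adenylate, where ADSL acts again, or to guanylate, where IMPDH1 and IMPDH2 catalyse the same rate-limiting oxidation and GMPS the final amination. Dividing cells depend on this route for DNA, RNA and GTP, and IMPDH2 is known as the isozyme that rises in proliferating and tumor cells.

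All values are FPKM, the fragments of a gene scaled by the authors for its length and for sequencing depth, and the depth itself is unknown. FGL1 was 0.0202, 0 and 0.106 FPKM in NC 1, 2 and 3 and 33.5, 39.3 and 39.9 FPKM in FGL1-OE 1, 2 and 3 (log2 fold change of FPKM + 1 5.21, SE 0.15, limma adjusted p = 1.29e-05), so the libraries carried what their labels say. Comparisons rest on n = 3 libraries a group, and nothing says that they came from separate cultures, so p-values measure only the spread between these libraries. NC 1 and NC 2 stood apart: their Pearson correlation over genes was 0.885, whereas the FGL1-OE libraries correlated with each other at 0.981 or more, and the median SD of a gene on the log2 scale was 0.308 in NC and 0.121 in FGL1-OE. With the FGL1-OE libraries NC 1 correlated at 0.935 to 0.953 and NC 2 at 0.955 to 0.971, so these values do not mark NC 2 as the deviant library. The fold changes of the 10 genes are also given without NC 2 where their call, count or direction changes. So are the medians and counts of the lists around them. Such values rest on NC 1 and NC 3 as the only controls. Of the 9 epithelial markers examined, squamous and general, 7 were listed, and KRT14 and SOX2 were not. The summed level of the 7 was 285 to 320 FPKM in NC and 381 to 398 FPKM in FGL1-OE. KRT6A (log2 fold change 0.50, SE 0.18, limma unadjusted p = 0.0241) and the adhesion gene CDH1 (0.54, SE 0.20, limma unadjusted p = 0.0263) were both higher before adjustment, and without NC 2 their log2 fold changes were both 0.35. Without any 1 of the FGL1-OE libraries neither passed. KRT6A alone made up 108 to 197 FPKM of the sum, EPCAM 90.5 to 122 FPKM and CDH1 32.2 to 62.0 FPKM, whereas KRT5 was 4.27 to 6.24 FPKM. The log2 fold changes of KRT17 (0.45, SE 0.25), EPCAM (0.08), DSG3 (0.02) and KRT5 (-0.06) did not pass, and TP63, at 0.299 to 0.779 FPKM, was too low to be tested. Of 7 markers of fibroblasts, blood and endothelial cells, COL1A1 and COL1A2 were listed, with a sum of 2.20 to 8.11 FPKM per library, and PTPRC, CD3E, PECAM1, VWF and PDGFRB were not. The part of these markers in the results was not tested, and in bulk RNA a change in the number of cells of a kind and in RNA per cell cannot be told apart.

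On the per-length FPKM scale the mean level in NC ran from 8.34 ± 3.6 (PPAT) to 81.3 ± 6.8 FPKM (IMPDH2, SD, n = 3), and the order of the means was the same in both groups except that PPAT and PFAS changed places. IMPDH2 stood highest, between 75.6 and 99.9 FPKM over the 6 libraries, and PRPS1 next, between 39.6 and 51.0 FPKM. Neither range touched that of any other gene. ATIC at 25.1 to 34.1, PAICS at 18.3 to 30.3, GART at 21.1 to 25.5, IMPDH1 at 14.4 to 29.96 and GMPS at 12.7 to 24.0 FPKM overlapped as neighbours. ADSL at 11.2 to 15.5 FPKM overlapped GMPS above and PFAS below. PFAS at 5.19 to 13.4 and PPAT at 5.46 to 12.3 FPKM were the lowest, and they could not be ranked against each other. The committing amidotransferase was therefore among the least abundant messages of the pathway in these cells, and the isozyme of the guanylate branch the most abundant.

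**Figure D1:**
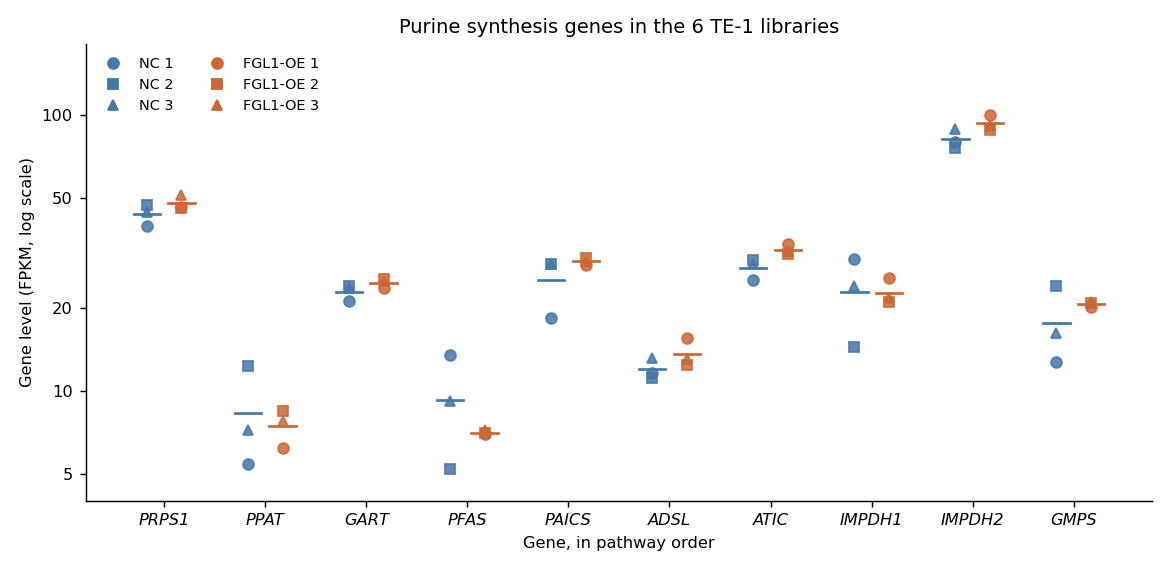
Level of each of the 10 genes (FPKM, log scale) in pathway order, with 1 symbol per library (circle, replicate 1; square, replicate 2; triangle, replicate 3), NC in blue and FGL1-OE in orange, and a bar at the mean of 3. The NC symbols of PPAT, PFAS, IMPDH1 and GMPS are spread wide around tight FGL1-OE symbols, and ATIC alone has no overlap between the groups.

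PRPS1 makes the PRPP that the pathway consumes, on chromosome X (GRCh37 106871654 to 106894256). It was 39.6, 47.1 and 44.3 FPKM in NC and 46.4, 46.0 and 51.0 FPKM in FGL1-OE. NC 2 lay above 2 of the 3 FGL1-OE libraries, so the groups overlapped, and the log2 fold change of 0.13 (SE 0.15, limma unadjusted p = 0.399) was smaller than its error.

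PPAT, the glutamine amidotransferase of the committing step, was 5.46, 12.3 and 7.24 FPKM in NC and 6.23, 8.43 and 7.76 FPKM in FGL1-OE. Its highest and its lowest value were both NC libraries, and the log2 fold change was -0.08 (SE 0.27). PAICS carries out the carboxylation and the succinocarboxamide step that follow ring closure. It was 18.3, 28.7 and 28.7 FPKM in NC and 28.6, 30.3 and 29.5 FPKM in FGL1-OE, so that NC 1 lay low and the other 5 libraries lay within 2 FPKM of each other. Its log2 fold change was 0.25 (SE 0.20, limma unadjusted p = 0.258).

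GART joins 3 activities of the early pathway in 1 protein. With 21.1, 23.9 and 23.6 FPKM in NC and 23.5, 25.5 and 24.95 FPKM in FGL1-OE it was the steadiest of the genes in NC (SD 0.10 on the log2 scale), and the groups overlapped (log2 fold change 0.11, SE 0.14). PFAS, an amidotransferase of the early pathway, was 13.4, 5.19 and 9.21 FPKM in NC and 6.95, 7.02 and 7.21 FPKM in FGL1-OE. The FGL1-OE libraries differed by less than 0.3 FPKM, while the NC libraries lay on both sides of them, and the log2 fold change was -0.27 (SE 0.29, limma unadjusted p = 0.384).

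ADSL, the lyase that acts both on the way to IMP and on the way to AMP, was 11.6, 11.2 and 13.1 FPKM in NC and 15.5, 12.4 and 13.02 FPKM in FGL1-OE. FGL1-OE 1 was the highest, and NC 3 lay between the FGL1-OE libraries (log2 fold change 0.17, SE 0.15). ATIC catalyses the last reactions that close the ring to IMP. Its 25.1, 29.8 and 28.8 FPKM in NC all lay below its 34.1, 31.2 and 32.1 FPKM in FGL1-OE. The log2 fold change of ATIC was 0.21 (SE 0.14, 95% interval -0.12 to 0.55), and it did not pass the test (limma unadjusted p = 0.178, adjusted p = 1.00).

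In the guanine branch, IMPDH1 was 29.96, 14.4 and 24.0 FPKM in NC and 25.5, 20.9 and 21.6 FPKM in FGL1-OE. NC 1 was the highest and NC 2 the lowest of the 6 libraries, the group means were 22.8 ± 7.8 and 22.7 ± 2.5 FPKM (SD, n = 3), and the log2 fold change was 0.05 (SE 0.26, 95% interval -0.56 to 0.65). IMPDH2 was 79.4, 75.6 and 88.8 FPKM in NC and 99.9, 88.2 and 91.1 FPKM in FGL1-OE, with NC 3 just above FGL1-OE 2 (log2 fold change 0.19, SE 0.15, limma unadjusted p = 0.220). GMPS, which aminates XMP to GMP, was 12.7, 24.0 and 16.1 FPKM in NC and 20.1, 20.8 and 20.9 FPKM in FGL1-OE. As for PFAS, its FGL1-OE values lay within 1 FPKM of each other and inside the NC range (log2 fold change 0.26, SE 0.23).

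Across the set, 0 of the 10 genes passed the limma test at an adjusted p under 0.05, where 0.00832% of the 12017 genes tested did, and 0 of 10 at an unadjusted p under 0.05, where 2.01% did. The single gene called in the whole table was FGL1. Groups did not overlap in 1 of the 10 (ATIC), against 7.15% of all genes tested. The log2 fold change was above 0 in 8 of 10, against 53.7% of all genes tested, and its median was 0.15, against 0.02 over all genes. Without NC 1 the median of the 10 fell to 0.06, with 9 above 0. The summed level of the 10 genes was 257, 272 and 284 FPKM in NC and 307, 291 and 299 FPKM in FGL1-OE, so the sums did not overlap. With each library scaled to a common sum (TPM), the totals were 1217, 1203 and 1337 in NC and 1371, 1360 and 1392 in FGL1-OE, and they stayed apart. Summed FPKM also stood apart for pyrimidine synthesis genes (277, 299 and 309 in NC, 326, 319 and 315 in FGL1-OE). For purine salvage and breakdown genes it overlapped (275, 268 and 292 in NC, 309, 293 and 287 in FGL1-OE). IMPDH2 and PRPS1, the most abundant of the 10, weigh most in these sums. Mean levels in NC and FGL1-OE were 81.3 and 93.1 FPKM for IMPDH2 and 43.7 and 47.8 FPKM for PRPS1. Each overlapped between groups on its own, which does not show how far they set the sums apart together.

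Leaving out NC 2 turned the direction of 2 genes and brought 2 others past an unadjusted p of 0.05, at which 21.8% of all genes tested then passed. PFAS was lower in FGL1-OE (log2 fold change -0.59, limma unadjusted p = 0.0101, adjusted p = 0.194) and GMPS was higher (0.49, limma unadjusted p = 0.0104, adjusted p = 0.194). IMPDH1 went from 0.05 to -0.24 and PPAT from -0.08 to 0.21. The other 6 genes kept positive values between 0.13 and 0.35. With NC 1 left out in place of NC 2, the log2 fold change was 0.02 for PFAS and 0.06 for GMPS.

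**Figure D2:**
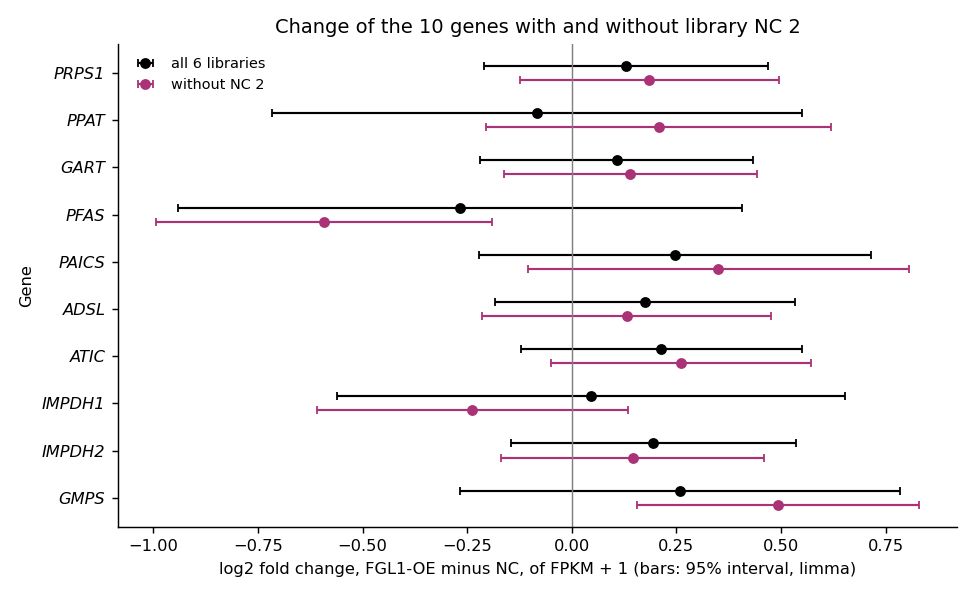
log2 fold change of FPKM + 1, FGL1-OE minus NC, for each of the 10 genes (points) with its 95% limma interval (bars), over all 6 libraries (black) and without NC 2 (purple). All 10 black intervals include 0, and without NC 2 those of PFAS and GMPS do not.

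The spread within NC moved with the base composition of the messages, and its part in the results was tested only by the trend removal given here. NC 1 or NC 2 was the lowest of the 6 libraries for all 10 genes, NC 1 for 6 and NC 2 for 4, and 9 of the 10 had a larger SD in NC than in FGL1-OE on the log2 scale, ADSL being the exception. For PPAT, PFAS, IMPDH1 and GMPS both the highest and the lowest value were in NC 1 and NC 2. Such counts were not made over all genes, but the median SD of all genes tested was also larger in NC (0.308) than in FGL1-OE (0.121). With all genes split into 10 bins by the GC content of their most abundant transcript, the median log2 ratio of FPKM + 1, NC 2 to NC 1, went from 0.92 in the bin of lowest GC (median 37.5%) to -0.94 in that of highest GC (median 64.9%), with a Spearman correlation of -0.79 over 11775 genes of these libraries. The 10 genes lay along the same line, with a Spearman correlation of -0.88 over 10 genes that share the libraries. PPAT, with 37.9% GC, was 1.05 higher on the log2 scale in NC 2 than in NC 1, and GMPS, with 40.9% GC, was 0.86 higher. PFAS at 58.2% GC and IMPDH1 at 62.2% GC stood at -1.22 and -1.005. When a trend on GC content and length was removed from each library, the log2 fold changes were -0.15 for PPAT, -0.20 for PFAS, 0.14 for IMPDH1 and 0.21 for GMPS, and the median of the 10 genes was 0.14. With NC 2 also left out they were -0.08, -0.39, 0.06 and 0.28, and the median was 0.07.

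**Figure D3:**
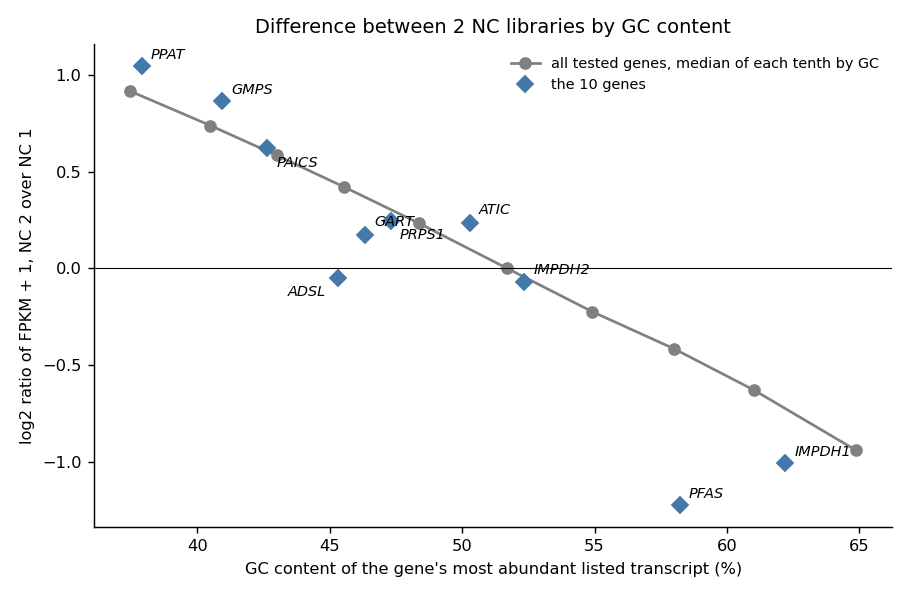
log2 ratio of FPKM + 1 between libraries NC 2 and NC 1 against the GC content (%) of each gene's most abundant listed transcript: blue diamonds are the 10 genes, grey circles the medians of 10 bins of all tested genes. Both fall from about 1 at low GC (PPAT, 1.05) to about -1 at high GC (IMPDH1, -1.005).

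Ratios within a library do not depend on scaling between libraries. They can still carry a trend on GC content, which was 62.2% for IMPDH1 and 52.3% for IMPDH2. Its part in the ratio was not tested. IMPDH1 was 0.377, 0.191 and 0.270 times the level of IMPDH2 in NC and 0.255, 0.237 and 0.237 times in FGL1-OE. The NC ratios lay on both sides of those of FGL1-OE, and the mean log2 ratio was -1.89 ± 0.49 in NC and -2.04 ± 0.06 in FGL1-OE (SD, n = 3), a difference of -0.15 (exact two-sided permutation p = 0.7, where 3 against 3 cannot go below 0.1). With gene levels taken as the sum of the listed transcripts, that difference was 0.15 (exact permutation p = 0.8), so its direction was not settled.

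PPAT and PAICS are neighbours on chromosome 4 that start in opposite directions, with 125 bases between them in the deposited GRCh37 coordinates. In the RefSeq annotation of GRCh38.p14 the start sites are 137 bases apart, and promoter windows of 250 bases before and 50 after a start were given for 8 of the 10 genes. The window of PAICS, chr4:56435502-56435801 on the plus strand, is shown because it holds the starts of both genes. It overlaps the PPAT window by 236 bases. Its capitals mark CACGTG, the E-box that MYC and MAX proteins can bind, 40 to 45 bases after the PAICS start.
PAICS promoter window: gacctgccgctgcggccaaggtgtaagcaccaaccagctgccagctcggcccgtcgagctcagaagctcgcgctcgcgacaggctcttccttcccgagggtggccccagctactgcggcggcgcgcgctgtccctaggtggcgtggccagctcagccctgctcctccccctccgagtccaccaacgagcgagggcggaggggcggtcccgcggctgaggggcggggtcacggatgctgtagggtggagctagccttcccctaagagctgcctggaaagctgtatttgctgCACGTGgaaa
CACGTG reads alike on both strands. It was found in 3 of the 12 windows of these genes, those of PPAT and PAICS, which share it, and that of ATIC, which holds 2, and in 7.26% of the 35116 windows of this length in the RefSeq table. A match of letters is not a bound site. Despite the shared region the messages did not sit at 1 ratio: PPAT was 0.299, 0.429 and 0.252 times PAICS in NC and 0.218, 0.278 and 0.263 times in FGL1-OE. NC 2 was the highest and FGL1-OE 1 the lowest. GC content was 37.9% for PPAT and 42.6% for PAICS, and its part in this ratio was not tested. The mean log2 ratio was -1.65 ± 0.39 in NC and -1.99 ± 0.18 in FGL1-OE (SD, n = 3), a difference of -0.34 (exact two-sided permutation p = 0.3). It was -0.13 without NC 2 and -0.51 without NC 3.

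Transcript levels were examined next, since 9 of the 10 genes have 2 or more listed transcripts (PPAT has 1). Of the 38 transcripts, 37 passed the filter of a mean of 0.5 FPKM, PFAS-202 being left out. None of the 37 passed at an adjusted p under 0.05 by limma, where 0.0165% of 30330 transcripts did, and 2 passed at an unadjusted p under 0.05, where 3.53% did. Both belong to IMPDH1. Without NC 2, 5 passed unadjusted, against 9.03% of all transcripts, the others being lower values of ADSL-212, PAICS-204 and PFAS-201. FPKM did not overlap between groups for 5 of 37 (ADSL-218, IMPDH1-202, IMPDH1-210, IMPDH2-203 and PRPS1-204), against 8.22% of all transcripts, and 25 of 37 had a log2 fold change above 0, against 51.9% of all transcripts.

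IMPDH1 was the gene whose transcripts changed places between the groups. The pair involved, IMPDH1-202 and IMPDH1-210, runs on the minus strand of chromosome 7. All 1527 coding bases of IMPDH1-210 are also in IMPDH1-202, which adds 147 coding bases before the start codon of IMPDH1-210 and 15 bases at the end of a shared coding exon. The latter are shown because they are the stretch inside the common reading frame that sets the transcripts apart. The sequences are the spliced coding bases within chr7:128400510-128400861 (GRCh38, GENCODE v29, minus strand), and capitals mark the 15 bases, or 5 codons, that IMPDH1-210 lacks.
IMPDH1-202: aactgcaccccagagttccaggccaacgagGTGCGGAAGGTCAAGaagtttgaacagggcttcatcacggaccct
IMPDH1-210: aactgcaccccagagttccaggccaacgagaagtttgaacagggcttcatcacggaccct
IMPDH1-202 was 41.5, 19.9 and 30.4 FPKM in NC and 13.7, 9.63 and 16.5 FPKM in FGL1-OE (log2 fold change -1.12, SE 0.36, limma unadjusted p = 0.0193, adjusted p = 1.00). IMPDH1-210 was 1.60 FPKM in NC 1, was listed at 0 in NC 2 and NC 3, and was 31.2, 27.7 and 19.3 FPKM in FGL1-OE (log2 fold change 4.27, SE 0.45, limma unadjusted p = 5.88e-05, adjusted p = 0.112). Every FGL1-OE library was thus below every NC library for the former and above for the latter. Neither passed the adjusted threshold, and over the alternatives run for IMPDH1-210 the adjusted p was between 0.0686 and 0.691.

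As a share of the summed FPKM of all listed IMPDH1 transcripts, IMPDH1-202 held 92.9%, 92.0% and 84.2% in NC and 29.6%, 24.3% and 43.9% in FGL1-OE. IMPDH1-210 held 3.58%, 0% and 0% in NC and 67.3%, 69.9% and 51.2% in FGL1-OE. The mean share of IMPDH1-210 was 61.6 percentage points higher in FGL1-OE, with at most 18.8 points between libraries of 1 group (exact permutation p = 0.1, the smallest possible with 3 against 3). Leaving out each library in turn gave 58.1 to 67.4 points. A share moved by at least 50 points between groups that do not overlap in 0.973% of the 8017 genes with 2 or more listed transcripts. Summed over its listed transcripts, IMPDH1 was 44.7, 21.6 and 36.2 FPKM in NC and 46.3, 39.7 and 37.7 FPKM in FGL1-OE, so the sums overlapped as the gene level did. The other IMPDH1 transcripts, IMPDH1-208, IMPDH1-212 and IMPDH1-216, stayed at or below 3.15 FPKM in every library.

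How far a library can tell these transcripts apart is limited by what they share. Cut into words of 31 bases, IMPDH1-210 has 1735 words, of which 103 are not in IMPDH1-202, and 0 that are in no other annotated IMPDH1 transcript. IMPDH1-202 has 2449 words, 817 of them not in IMPDH1-210. Exact zeros were common in the transcript table, with 21.04% of all listed transcripts and 9 of the 38 described here at 0 in at least 1 library, so a value of 0 may be a failed assignment. The part of this in the IMPDH1 difference was not tested.

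Shares of the other genes moved more between libraries of 1 group than between groups. This held for 8 of the 9 genes with several transcripts, all but IMPDH1, and in 5 of them a share ranged over 30 points or more within NC or within FGL1-OE, as it did in 62.1% of the 8017 genes. Of the 37 shares, 5 did not overlap between groups (ADSL-216, ADSL-218, ATIC-203, IMPDH1-202 and IMPDH1-210), against 9.31% of all shares.

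GART gave the widest case. GART-203 held 79.9%, 58.2% and 81.6% of the gene in NC and 73.2%, 76.9% and 12.2% in FGL1-OE. GART-204 was listed at 0 in NC 1, NC 3, FGL1-OE 1 and FGL1-OE 2, at 2.16 FPKM in NC 2 and at 37.1 FPKM in FGL1-OE 3, where GART-203 dropped to 7.52 FPKM. A single library therefore carried this exchange. GART-203, GART-204 and GART-205 have the same 3030 coding bases in 21 coding exons and differ only ahead of the start codon, so they encode the same protein.

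ATIC-201 and ATIC-205 use different first codons, shown here as the first 60 coding bases of each on the plus strand of chromosome 2 (GRCh38, within chr2:215312143-215312538 and chr2:215312482-215312541). Capitals mark the bases that the other lacks, and the lower-case bases begin the shared reading frame.
ATIC-201: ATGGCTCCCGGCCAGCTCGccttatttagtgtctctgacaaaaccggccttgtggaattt
ATIC-205: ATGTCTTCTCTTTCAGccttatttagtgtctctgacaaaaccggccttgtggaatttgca
ATIC-201 was 4.33, 25.2 and 13.1 FPKM in NC and 24.0, 15.5 and 17.9 FPKM in FGL1-OE, and ATIC-205 was 23.8, 16.4 and 22.0 FPKM in NC and 22.9, 20.97 and 25.3 FPKM in FGL1-OE. The share of ATIC-201 ran from 14.5% in NC 1 to 58.8% in NC 2, a range that took in all 3 FGL1-OE libraries at 40.4% to 49.97%. ATIC-203, a fragment with an incomplete reading frame, held 3.02% to 5.86% in NC and 2.08% to 2.68% in FGL1-OE.

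PRPS1-204, the full-length message, was 40.5, 40.2 and 45.7 FPKM in NC and 47.8, 46.9 and 46.3 FPKM in FGL1-OE, so the groups did not overlap, but the difference was small (log2 fold change 0.16, SE 0.21). PRPS1-202 ends early, and its last 129 coding bases, within chrX:107640971-107641099 (GRCh38, plus strand), are shown with the 99 bases that PRPS1-204 lacks in capitals.
PRPS1-202: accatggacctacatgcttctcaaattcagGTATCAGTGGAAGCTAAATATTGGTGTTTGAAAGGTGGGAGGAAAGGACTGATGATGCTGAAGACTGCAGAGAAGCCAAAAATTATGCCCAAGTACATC
This short form was 35.004 FPKM in NC 2 and 26.9 FPKM in FGL1-OE 3 and between 3.69 and 5.99 FPKM in the other 4 libraries. It was thus high in 1 library of each group, and its log2 fold change was 0.01 (SE 0.93).

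GMPS-201 skips 2 coding exons, or 297 coding bases, of GMPS-203. Its coding sequence starts as follows, on the plus strand of chromosome 3 (GRCh38, spliced bases within chr3:155870871-155903892), with the bases on both sides of the new junction in capitals.
GMPS-201: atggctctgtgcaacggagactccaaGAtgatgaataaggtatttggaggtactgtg
It was 2.15, 0 and 8.48 FPKM in NC and 15.4, 3.18 and 1.84 FPKM in FGL1-OE, against 12.4, 24.3 and 14.4 and 16.8, 20.4 and 20.8 FPKM for GMPS-203. The share of GMPS-201 was highest in FGL1-OE 1, at 47.9%, and next in NC 3, at 37.1%, and only 28 of its 1994 words are absent from GMPS-203.

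PAICS-208 and PAICS-201 differ in 8 of the 3310 words of PAICS-208, though their annotated coding sequences are 999 and 1275 bases long. Yet the former took 42.4%, 90.3% and 72.4% in NC and 85.3%, 64.2% and 82.1% in FGL1-OE, and the latter 1.16% to 7.43% in all libraries. ADSL had 8 listed transcripts. ADSL-208 led in every library with 29.5% to 58.4%, and ADSL-218, a form with an incomplete reading frame, was 9.07, 3.22 and 3.77 FPKM in NC and 2.61, 2.89 and 1.96 FPKM in FGL1-OE (log2 fold change -0.76, SE 0.39, limma unadjusted p = 0.0940, and -0.37 without NC 1). PFAS-201 held 78.9% to 99.4% of its gene. IMPDH2 was the steadiest gene at this level: IMPDH2-201 held 94.0% to 96.2% in all 6 libraries, a range of 2.21 points at most within a group, and the minor IMPDH2-203 was 1.90, 1.93 and 1.52 FPKM in NC and 2.57, 2.83 and 2.10 FPKM in FGL1-OE (log2 fold change 0.33, SE 0.23).

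**Figure D4:**
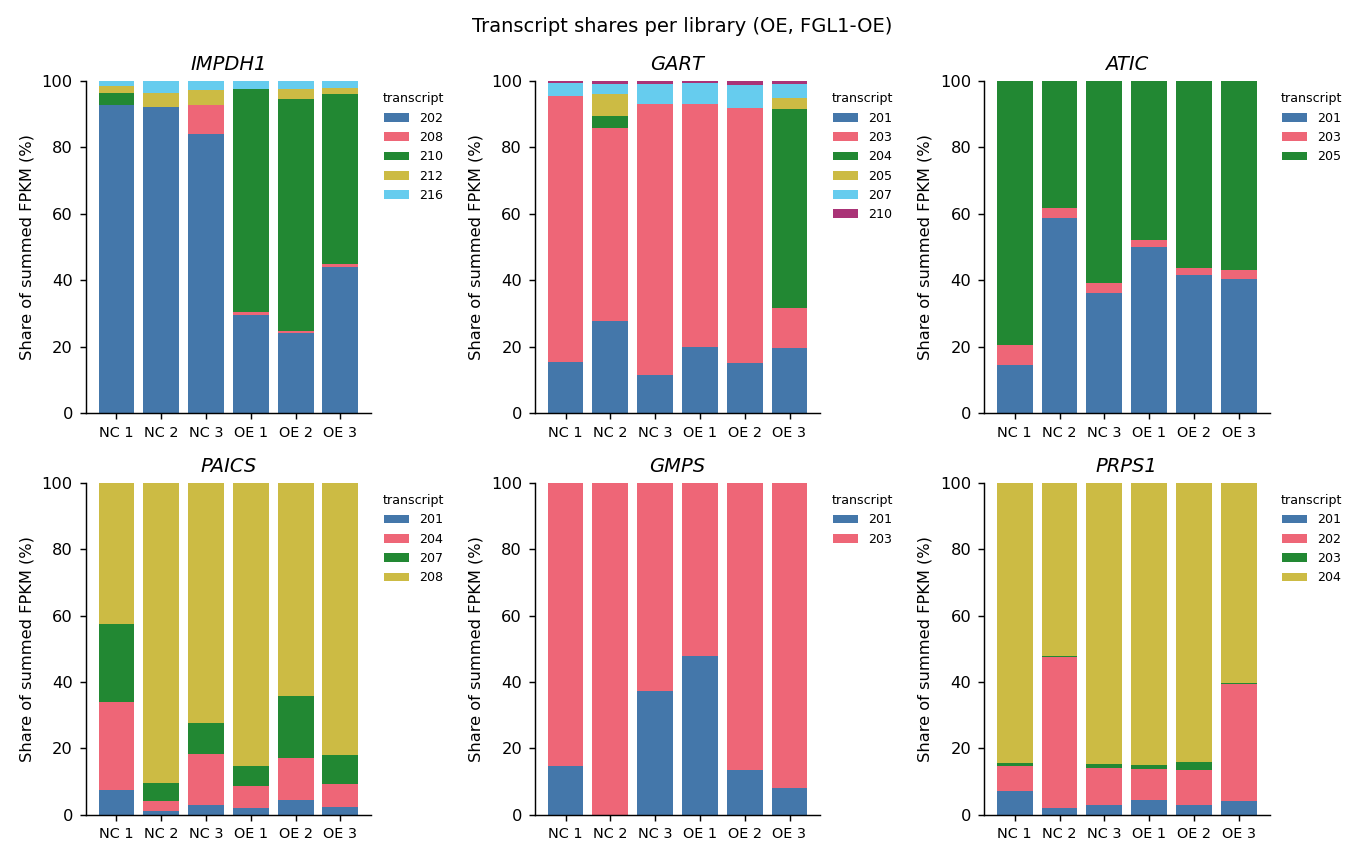
Share (%) of each listed transcript in the summed FPKM of its gene, 1 stacked bar per library, for IMPDH1, GART, ATIC, PAICS, GMPS and PRPS1. IMPDH1-210 fills 51.2% to 69.9% of the FGL1-OE bars and at most 3.58% of the NC bars, whereas in the other 5 genes the bars of 1 group differ as much as the groups do (GART-203, 12.2% to 76.9% within FGL1-OE).

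The genes around the pathway were read from the same fit, and 0 of them passed at an adjusted p under 0.05. Of 4 other PRPP synthetase genes 3 were listed, with a median log2 fold change of 0.40. Without NC 2 the median was 0.38, and 1 passed unadjusted, where 21.8% of all genes tested did. PRPSAP1, a regulatory partner of the synthetase, was 7.504, 6.87 and 7.23 FPKM in NC and 10.3, 9.15 and 10.2 FPKM in FGL1-OE, with no overlap (log2 fold change 0.41, SE 0.14, limma unadjusted p = 0.0199, not under 0.05 without NC 3, FGL1-OE 1 or FGL1-OE 3). PRPS2, a second catalytic form, reached 11.4 and 11.04 FPKM in FGL1-OE 2 and 3 but 5.49 FPKM in FGL1-OE 1, below all of NC at 5.73 to 7.51 FPKM. In the adenylate branch (7 genes) and among guanylate handling genes (8 genes, led by the nucleoside diphosphate kinase NME2 with 76.5 to 108.8 FPKM), 0 passed unadjusted and 0 had groups apart. Their median log2 fold changes were 0.18 and 0.04. Without NC 2 the medians were 0.29 and -0.01, and 1 gene of each passed unadjusted, where 21.8% of all genes tested did. These were AK6 (0.87, limma unadjusted p = 0.000277) and GMPR (-0.45, limma unadjusted p = 0.0255), named after their values were seen.

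Glycine and formyl groups for the purine ring come from serine and folate metabolism. Of 15 listed genes of this supply, 13 had a log2 fold change above 0, against 53.7% of all genes tested. The median was 0.12, and 1 passed unadjusted, against 2.01% of all genes tested. PSPH, the last enzyme of serine synthesis, was 11.7, 12.8 and 17.98 FPKM in NC and 20.7, 20.1 and 18.02 FPKM in FGL1-OE (log2 fold change 0.46, SE 0.19, limma unadjusted p = 0.0415); NC 3 and FGL1-OE 3 all but touched. MTHFD1, which makes the formyl donor, was 17.6, 27.5 and 25.6 FPKM in NC and 28.6, 30.1 and 30.6 FPKM in FGL1-OE (0.35, SE 0.19, and 0.16 without NC 1), also with groups apart. Without NC 2 the median of the 15 was 0.22 and 3 passed unadjusted by limma, where 21.8% of all genes tested did. These were MTHFD1 (0.47), SLC25A32 (0.36) and, lower in FGL1-OE, PHGDH (-0.52), whereas PSPH did not pass. SLC25A32 and PHGDH were named after their values were seen. PSAT1 was the most abundant of them, at 56.9 to 112.5 FPKM with both ends in NC.

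In salvage and breakdown, 0 of 12 genes passed unadjusted, 10 were above 0, against 53.7% of all genes tested, and the median was 0.12. ADK, which rephosphorylates adenosine, was 42.8, 63.3 and 64.6 FPKM in NC and 71.0, 71.0 and 73.2 FPKM in FGL1-OE (log2 fold change 0.35, SE 0.19, and 0.16 without NC 1). Without NC 2 it was the 1 gene of the 12 that passed unadjusted (0.44, limma unadjusted p = 0.0489), where 21.8% of all genes tested did. The median of the 12 was then 0.21. PNP, which splits guanosine and inosine, was 24.2, 27.6 and 29.3 against 33.2, 31.4 and 30.3 FPKM (0.22, SE 0.15), and HPRT1, the salvage enzyme of guanine and hypoxanthine, had the highest mean over the 6 libraries, at 50.7 to 76.4 FPKM, with ADK above it in FGL1-OE 2 and 3. For pyrimidine synthesis, 0 of 8 passed unadjusted and 3 had groups apart, against 7.15% of all genes tested. Each of these changed by under 2 SE: UMPS (0.25, SE 0.15), CTPS1 (0.15, SE 0.14) and TYMS, the most abundant at 144.6 to 174.5 FPKM (0.12, SE 0.14). The median of these 8 genes was 0.11, against 0.15 for the 10 purine genes. Without NC 2 it was 0.13, and 1 passed unadjusted, where 21.8% of all genes tested did. This was CMPK1 (0.40, limma unadjusted p = 0.0413), named after its values were seen.

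Among 7 known regulators of purine genes 0 passed unadjusted, with or without NC 2, and the median log2 fold change was 0.07, and 0.11 without NC 2. MAX was 6.51, 6.06 and 7.33 FPKM in NC and 8.84, 8.23 and 8.05 FPKM in FGL1-OE (log2 fold change 0.30, SE 0.14, limma unadjusted p = 0.0727). MYC, its partner at the E-box, lay between 2.15 and 2.33 FPKM in 5 libraries and at 21.5 FPKM in FGL1-OE 3. In that library PPAT, PAICS and ATIC were 7.76, 29.5 and 32.1 FPKM, each between the other FGL1-OE libraries. Whether MYC acts on PPAT, PAICS or ATIC was not tested. ATF4 was the most abundant regulator, at 181.7 to 244.4 FPKM, with both ends in NC.

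**Figure D5:**
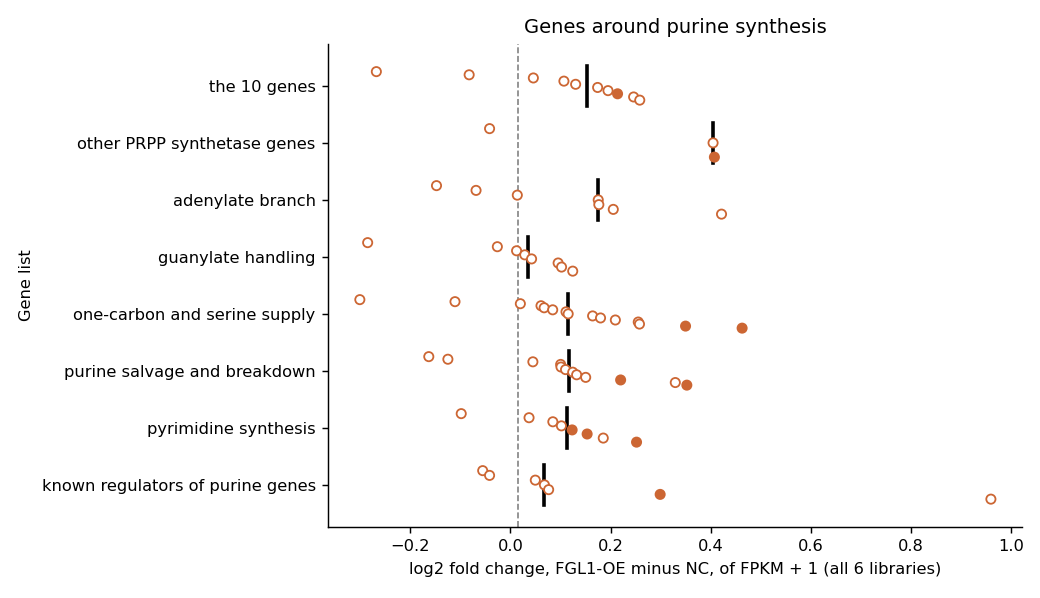
log2 fold change of FPKM + 1, FGL1-OE minus NC over all 6 libraries, for each listed gene (circles) of the purine genes and of 7 lists around them. Filled circles are genes whose groups do not overlap, black bars list medians and the dashed line the median of all genes (0.02). Nearly all genes lie between -0.3 and 0.5, and the purine genes (median 0.15) lie among the other lists; the circle at 0.96 is MYC, high in FGL1-OE 3 alone.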

How the data were processed

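The authors deposited FPKM values per library for protein-coding genes and transcripts, from oligo(dT)-enriched, strand-specific libraries sequenced on an Illumina NovaSeq. Per the labels, reads were processed on GRCh37 with StringTie; its version, the aligner and the read depth are not given in the sources used here. The deposited fold changes, p-values, q-values and group means were not used, and 0 columns of per-sample values lacked a sample. Tests took features whose mean over the 6 libraries reached 0.5 FPKM, by limma 3.58.1 (R 4.3.3) on log2(FPKM + 1), with the group as the only term and Benjamini-Hochberg adjustment over each whole table (threshold 0.05). Log2 fold changes are on this scale, which understates changes of low values. Shares and ratios had exact two-sided permutation tests (Python 3.11.15). In simulated data, 37.5%, 87.5% and 98.5% of genes changed by 1, 2 and 4 on the log2 scale were recovered, and 0%, 0% and 73.5% of transcripts. The simulation changed many features at once and gave both groups the same SD. In the real libraries few features were called and NC spread wider, so these shares may overstate recovery.

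The genes named are FGL1, the 10 members and, of the other lists, the genes with an unadjusted p under 0.05, with groups apart or with the highest mean; PRPS2, MYC and those so marked were named after their values were seen. A gene that this rule picks is not reported here. The members and lists were chosen with earlier results of these data known. Transcript sequence, length and GC content came from GENCODE v29 (GRCh38), matched by identifier for 99.6% of transcripts and 97.6% of genes, and promoters from RefSeq (GRCh38.p14). Coordinates of genes are those of the tables (GRCh37).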

Additional observations from a re-analysis of the deposited data

How the results depend on the processing

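The fold changes of the 10 genes, of other genes and transcripts that passed unadjusted or had groups apart and of MYC and PRPS2, the medians and the counts of calls were computed again with a pseudocount of 0.1, no filter, scaling to a common sum (TPM), a replicate block, an ordinary linear model, the sum of listed transcripts, each library left out in turn and, chosen after seeing the data, removal of the GC and length trend with and without NC 2. Trend removal and the sum of transcripts were run for genes only, the ratios only with the sum of transcripts and without each library, and the shares only without each library. Counts of genes with groups apart were not computed again. Where these apply, 0 of the 10 genes and 0 of their transcripts reached an adjusted p under 0.05, and ATIC, GART, GMPS, IMPDH2, PAICS and PRPS1 kept their direction. Directions turned for PPAT (-0.32 to 0.21 over the libraries left out), PFAS (-0.59 to 0.019) and IMPDH1 (-0.24 to 0.26), and for ADSL with the sum of transcripts (-0.13) and with the trend removed without NC 2 (-0.00012). The cause was not tested. The median of the 10 genes was 0.062 (without NC 1) to 0.19, and 0.074 with the trend removed without NC 2. In that setting 2 of the 10 passed unadjusted, where 1962 of the 11775 genes tested did. Without NC 2 alone 2 of the 10 also passed, where 21.8% of all genes tested did (0 to 2 over the libraries left out). Of their transcripts, 1 (without NC 3 or FGL1-OE 2) to 5 (without NC 2, where 9.03% of all transcripts did) passed unadjusted. The log2 ratio of IMPDH1 to IMPDH2 differed by -0.39 to 0.10, and by 0.15 with the sum of transcripts, and that of PPAT to PAICS by -0.51 (without NC 3) to -0.13 (without NC 2). Of the other genes named, PSPH passed unadjusted only without NC 3 among the libraries left out, PRPSAP1 did not without NC 3, FGL1-OE 1 or FGL1-OE 3, and MYC fell from 0.96 to 0.03 without FGL1-OE 3. With the sum of transcripts PSPH was 0.10, UMPS 0.07 and PNP 0.07.

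Counts over all genes with an adjusted p under 0.05 were 1 to 7 over the libraries left out (7 without NC 2), 2 with the linear model and 3 with the trend removed without NC 2. Unadjusted, they were 137 (without FGL1-OE 3) to 2618 (without NC 2), 374 with the linear model, 697 with the trend removed and 1962 when also without NC 2. For transcripts they were 1 to 28 adjusted (28 without NC 2) and 874 to 2738 unadjusted, with 29, 3 and 0 adjusted for a pseudocount of 0.1, the linear model and the replicate block. In their deviations from the group means, libraries of the same number correlated at 0.35, 0.28 and -0.06. Those of different numbers correlated at -0.37 to 0.14. With 3 libraries a group, these values cannot decide whether the numbers pair the libraries. The replicate block gave 298 genes unadjusted against 242, and for IMPDH1-210 an adjusted p of 0.691 by limma. Depth is unknown, so no limit from counts can be set.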
